A study of Mus musculus with 6 samples.

Results

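The Sprouty and Spred genes were examined in primary mouse cardiomyocytes as a group of 6 genes, Spry1, Spry2, Spry4, Spred1, Spred2 and Spred3. They were selected by name, through their Ensembl gene IDs in GENCODE M21. No value entered this rule, but earlier results of these data were known when the group was chosen. All 6 were found among the 54532 gene IDs measured, and all 6 were among the 13794 genes expressed at a mean of at least 0.5 FPKM (fragments per kilobase of exon and per unit of sequencing depth) and therefore tested. RNA-seq had been performed on cells from the hearts of 1- to 3-day-old mice of the Rit1 LoxP-M90I line, whose Rit1 locus expresses the M90I form once Cre has acted on it. Rit1 encodes a GTPase of the RAS family that is mutated in Noonan syndrome. On day 3 after isolation the cultures received an adenovirus encoding GFP alone (AdGFP, labelled Rit1 +/+, 3 samples) or GFP-Cre (AdCre, labelled Rit1 M90I/+, 3 samples). The inducible allele was thus present in the mice behind both groups, and its recombination was set by the virus in culture rather than by a cell type-specific promoter. Wild-type cells infected with AdCre were not analysed here, so an effect of the variant and an effect of the recombinase cannot be told apart. RNA was sequenced from cells harvested on day 6 after infection. The labels call the samples biological replicates without tying them to separate hearts or litters, so p-values measure the spread between these samples, which may be technical in part.

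Sprouty proteins are feedback inhibitors of receptor tyrosine kinase signaling. Their transcription is induced by ERK, the last kinase of the RAS-RAF-MAPK cascade, and the proteins act back on steps at or above RAS and RAF. Spred proteins share the cysteine-rich Sprouty domain at their C-terminus and add an EVH1 domain, through which Spred1 and Spred2 recruit neurofibromin (Nf1), a GTPase-activating protein that switches RAS off. Loss of Spred1 function causes Legius syndrome, which belongs with Noonan syndrome to the RASopathies. The comparison of AdCre with AdGFP asks which transcripts differ once the M90I variant is switched on, and for these genes whether the transcripts of RAS inhibitors differ with it.

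The bases upstream of Spry1 and Spry2 are shown because these were the members with the most similar profiles over the samples. They cover 250 bases before the RefSeq start (GRCm38.p6), read 5′ to 3′ on the strand of the gene, with CG dinucleotides in capitals. Spry1 is at chr3:37639697-37639946 on the plus strand and Spry2 at chr14:105896820-105897069 on the minus strand.
Spry1: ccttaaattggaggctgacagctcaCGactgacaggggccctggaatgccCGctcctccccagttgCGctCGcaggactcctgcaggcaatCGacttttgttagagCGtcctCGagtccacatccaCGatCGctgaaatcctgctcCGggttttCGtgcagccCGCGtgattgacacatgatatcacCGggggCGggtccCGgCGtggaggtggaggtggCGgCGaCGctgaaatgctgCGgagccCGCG
Spry2: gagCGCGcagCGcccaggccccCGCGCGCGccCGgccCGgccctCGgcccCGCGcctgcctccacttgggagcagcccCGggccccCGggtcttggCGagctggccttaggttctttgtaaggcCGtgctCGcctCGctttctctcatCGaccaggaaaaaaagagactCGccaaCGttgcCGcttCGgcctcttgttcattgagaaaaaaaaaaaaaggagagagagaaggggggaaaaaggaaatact
Each stretch held 23 CG dinucleotides. Over the full window of 300 bases, which runs 50 bases past the start, Spry1 had 29 and Spry2 28, against a median of 7 over 32851 RefSeq windows of the same length. Spred1 had 40, Spred2 17 and Spred3 8. Both strands of these 5 windows were searched for letters bound by transcription factors of growth factor signaling. The ETS letters CCGGAA were found once, in Spry2, 33 bases downstream of the start, and 14.9% of all windows hold them. The AP-1 letters TGACTCA (5.2% of all windows), the CRE letters TGACGTCA (1.79%) and the CArG box (1.63%) were not in any of the 5 windows. The Spry4 window was not analysed here.

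No Sprouty or Spred gene passed the test between AdCre and AdGFP. Spry1 and Spry2 had lower means in AdCre, and Spry4, Spred1, Spred2 and Spred3 had higher means. Differences were tested with limma on log2(FPKM + 0.1), with Benjamini-Hochberg adjustment over all 13794 genes and a threshold of 0.05 on the adjusted p. Under it 0 of the 6 passed, where 0.00725% of all genes did, which is 1 gene, Ly6c1 (log2 fold change 2.32 ± 0.15 SE, adjusted p = 0.0178), named after its values were seen. At an unadjusted p under 0.05 there were 2 members, Spred2 and Spred3, against 10.2% of all genes. Samples with the same number deviated together from their group means, so the fit was repeated with the replicate number as a block. With the block 0 of the 6 passed, against 6.15% of all genes, and 4 had an unadjusted p under 0.05 (Spry1, Spry2, Spred2 and Spred3), against 24.7% of all genes. With voom on reads recovered from the FPKM values 0 of the 13788 genes passed and 2 members had an unadjusted p under 0.05, against 10.5% of all genes. With voom and the block Spred2 and Spred3 passed, where 12.6% of all genes did.

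**Figure D1:**
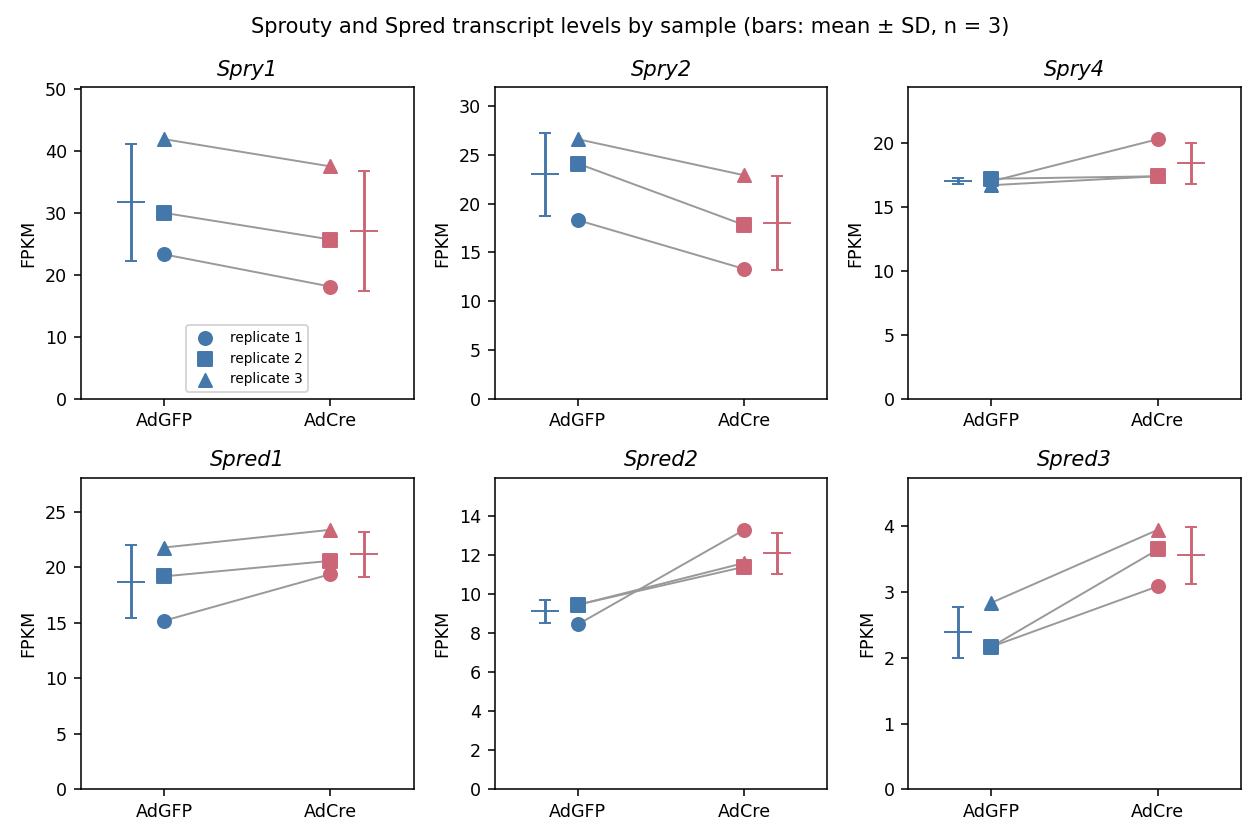
Transcript level in FPKM (y axis, from 0, a separate scale for each gene) of the 6 genes in AdGFP and AdCre samples. Points are samples, grey lines join samples with the same number, and bars give the mean ± SD of 3 samples. Lines slope down for Spry1 and Spry2 and up for the other genes, and the groups overlap for Spry1, Spry2 and Spred1.

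Of the Sprouty genes, Spry1 had the highest mean in both groups, though Spry4 was above it in AdCre sample 1 (20.3 against 18.1 FPKM). Spry1 (ENSMUSG00000037211, GRCm38 chr3:37639947-37644598) encodes an inhibitor best known for restraining growth factor signaling in the developing kidney. Its level was 23.3, 30 and 41.9 FPKM in AdGFP samples 1 to 3, and 18.1, 25.7 and 37.5 FPKM in AdCre samples 1 to 3. The samples of the groups interleaved, and the samples within a group spanned a wider range than the groups did. The means were 31.7 ± 9.44 and 27.1 ± 9.74 FPKM (SD, n = 3 each), a log2 fold change of -0.25 with a 95% interval from -0.98 to 0.48 (limma adjusted p = 0.867). Within numbered pairs AdCre was lower by each of 3 differences, -0.36, -0.22 and -0.16 on the log2 scale, and the interval with the block ran from -0.44 to -0.06 (adjusted p = 0.125). Without AdCre replicate 1, which left AdGFP replicate 1 without its pair, the log2 fold change was 0.01. It was -0.02 without AdGFP replicate 3 and -0.51 without AdCre replicate 3. With the block and a whole pair left out it stayed below 0, at -0.19, -0.26 and -0.29 for pairs 1, 2 and 3.

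Spry2 (ENSMUSG00000022114, chr14:105891947-105896819) encodes a Sprouty protein that is phosphorylated on tyrosine after growth factor stimulation and then binds the ubiquitin ligase Cbl. Its level was 18.3, 24.1 and 26.6 FPKM in AdGFP and 13.3, 17.8 and 22.9 FPKM in AdCre. The AdCre sample with the highest level lay below AdGFP samples 2 and 3 and above AdGFP sample 1, so the groups overlapped. The means were 23.0 ± 4.27 and 18 ± 4.8 FPKM (SD, n = 3 each), and the log2 fold change was -0.37 with a 95% interval from -0.92 to 0.17 (limma adjusted p = 0.664). AdCre was lower in every pair (-0.46, -0.44 and -0.22), and with the block the interval was -0.58 to -0.16 and the limma adjusted p 0.0632. Spry2 passed under 1 of the alternatives, the blocked fit restricted to protein-coding genes (limma adjusted p = 0.046), in which 9.39% of genes passed. Its log2 fold change was -0.17 without AdCre replicate 1 and -0.56 without AdCre replicate 3.

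Spry4 (ENSMUSG00000024427, chr18:38586247-38601415) encodes an inhibitor also induced by ERK, and it varied least of the 6. Its level was 17.0, 17.2 and 16.7 FPKM in AdGFP and 20.3, 17.4 and 17.4 FPKM in AdCre. The AdCre samples lay just above the AdGFP samples, by a margin carried mostly by AdCre 1. The log2 fold change was 0.11 with a 95% interval from -0.15 to 0.37 (limma adjusted p = 0.825, and 0.47 with the block), and pair differences were 0.25, 0.02 and 0.06. Without AdCre replicate 1 the log2 fold change was 0.04. The remaining Sprouty gene of the mouse, Spry3, was outside the 6 and below the level for testing, at between 0.0718 and 0.336 FPKM.

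Among the Spred genes, Spred1 was the most abundant. Spred1 (ENSMUSG00000027351, chr2:117121374-117182279), the Legius syndrome gene, was at 15.2, 19.2 and 21.8 FPKM in AdGFP and at 19.4, 20.6 and 23.4 FPKM in AdCre. The groups overlapped, and AdCre was above AdGFP within each pair (0.35, 0.10 and 0.10 on the log2 scale). The means were 18.7 ± 3.3 and 21.2 ± 2.04 FPKM (SD, n = 3 each), with a log2 fold change of 0.19, a 95% interval from -0.19 to 0.56 and a limma adjusted p of 0.782 (0.255 with the block). Leaving out AdGFP replicate 1 gave 0.04, leaving out AdCre replicate 3 gave 0.11, and leaving out AdGFP replicate 3 gave 0.30.

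Spred2 (ENSMUSG00000045671, chr11:19924375-20024026) encodes a protein that, like Spred1, binds neurofibromin. It was at 8.45, 9.46 and 9.45 FPKM in AdGFP and at 13.3, 11.4 and 11.6 FPKM in AdCre. The lowest AdCre value exceeded the highest AdGFP value. An exact permutation test (two-sided) gave p = 0.1, below which a design of 3 against 3 cannot go. The means were 9.12 ± 0.578 and 12.1 ± 1.05 FPKM (SD, n = 3 each), a ratio of 1.33. The log2 fold change was 0.40 with a 95% interval from 0.12 to 0.69 (limma, unadjusted 0.0116, adjusted p = 0.338). Pair 1 gave the largest of its pair differences (0.65, with 0.26 and 0.30 in pairs 2 and 3), and with the block the limma adjusted p was 0.0848. It passed in voom with the block only, of 30 alternatives (log2 fold change 0.47, adjusted p = 0.0213).

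Spred3 (ENSMUSG00000037239, chr7:29158829-29170411), the least studied Spred gene, had the lowest level and the largest log2 difference of the 6. It was at 2.17, 2.17 and 2.84 FPKM in AdGFP, which rested on 333, 342 and 435 reads, and at 3.09, 3.65 and 3.95 FPKM in AdCre, on 615, 586 and 681 reads. Again the groups did not overlap (exact permutation p = 0.1). The means were 2.39 ± 0.387 and 3.56 ± 0.439 FPKM (SD, n = 3 each), a ratio of 1.49, and the log2 fold change was 0.56 with a 95% interval from 0.15 to 0.97 (limma, unadjusted 0.0143, adjusted p = 0.35). Of all genes tested, 12.3% differed by more than Spred3 in size. Its pair differences were 0.49, 0.72 and 0.46, and with the block the interval was 0.27 to 0.85 and the limma adjusted p 0.0518. It passed under 4 alternatives, all with the block: voom (adjusted p = 0.00966 from limma on weighted reads), rescaling to TPM (limma adjusted p = 0.0396), protein-coding genes only (0.0378) and libraries scaled to their summed reads (0.0372). Of all genes, 6.34% passed after rescaling to TPM and 6.34% with summed reads. Voom, TPM and summed reads with the block moved the median log2 fold change of all genes to 0.058, 0.087 and 0.058. Spred3 did not pass in the blocked fits with median centring (limma adjusted p = 0.0503), quantile normalization (0.0535), a pseudocount of 1 (0.0544) or no intensity trend (0.0909).

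**Figure D2:**
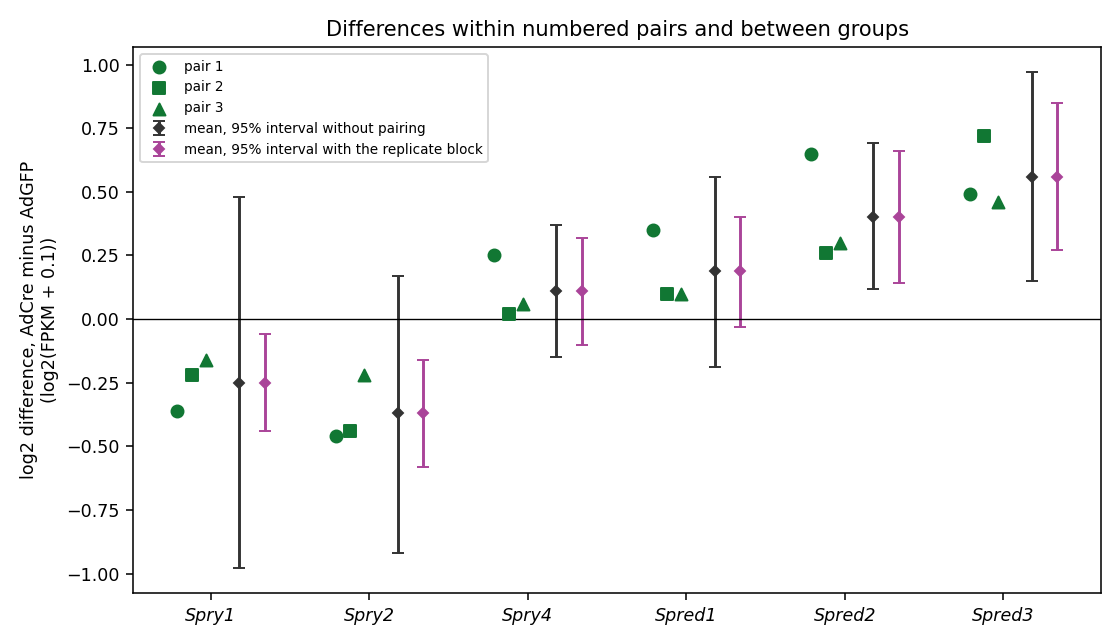
Log2 difference of AdCre minus AdGFP (y axis, log2(FPKM + 0.1)) for each of the 6 genes. Green points are the 3 numbered pairs, and diamonds with bars are the mean with its 95% interval, without pairing (black) and with the replicate block (purple). All pair points lie below 0 for Spry1 and Spry2 and above 0 for the other 4 genes, and for Spry1 and Spry2 only the blocked interval leaves out 0.

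Read as directions, 4 of the 6 members (Spry4, Spred1, Spred2 and Spred3) were higher in AdCre in all 3 pairs, where 23.9% of all genes tested were, and 2 (Spry1 and Spry2) were lower in all 3 pairs, where 24.5% were. Groups without overlap were seen for Spry4, Spred2 and Spred3, all with AdCre higher, against 7.36% of all genes. None of the 6 had AdCre lower without overlap, against 8.02% of all genes. The median log2 fold change of the 6 was 0.15, and that of all genes tested was 0.00. For the 6 it was 0.08 without AdGFP replicate 1, 0.07 with the block and without pair 1, and 0.24 after rescaling to TPM, which moved the median of all genes to 0.087. Every member value rested on at least 333 reads. The Spry1 values rested on between 1672 and 3018 reads and had a coefficient of variation of 29.8% in AdGFP and 35.9% in AdCre, against 1.41% and 8.89% for Spry4 on between 1961 and 3087 reads.

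The order of the levels differed between the groups in the place of Spry2. In AdGFP the means ran from Spry1 (31.7 FPKM) through Spry2 (23.0), Spred1 (18.7), Spry4 (17.0) and Spred2 (9.12) to Spred3 (2.39). In AdCre Spry2 (18 FPKM) came after Spry1 (27.1), Spred1 (21.2) and Spry4 (18.4) and before Spred2 (12.1) and Spred3 (3.56). Neighbours in these orders had overlapping ranges except Spry4 and Spred2 in AdGFP and Spred2 and Spred3 in both groups. FPKM divides by exon length, here between 2087 bases for Spry2 and 6784 for Spred1, so these are levels per length.

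Summed over the 6 genes, the level was 84.5, 102 and 119 FPKM in AdGFP and 87.6, 96.6 and 117 FPKM in AdCre, and these ranges overlapped. The make-up of the sum differed. Spred genes took 30.6, 30.2 and 28.5% of it in AdGFP and 40.9, 36.9 and 33.4% in AdCre, so that each AdCre sample was above each AdGFP sample. The ratio of Spred2 to Spry2 was 0.462, 0.392 and 0.355 in AdGFP and 1.0, 0.64 and 0.508 in AdCre, again without overlap. Both ratios were computed after the directions of the members were known and carry no test.

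**Figure D3:**
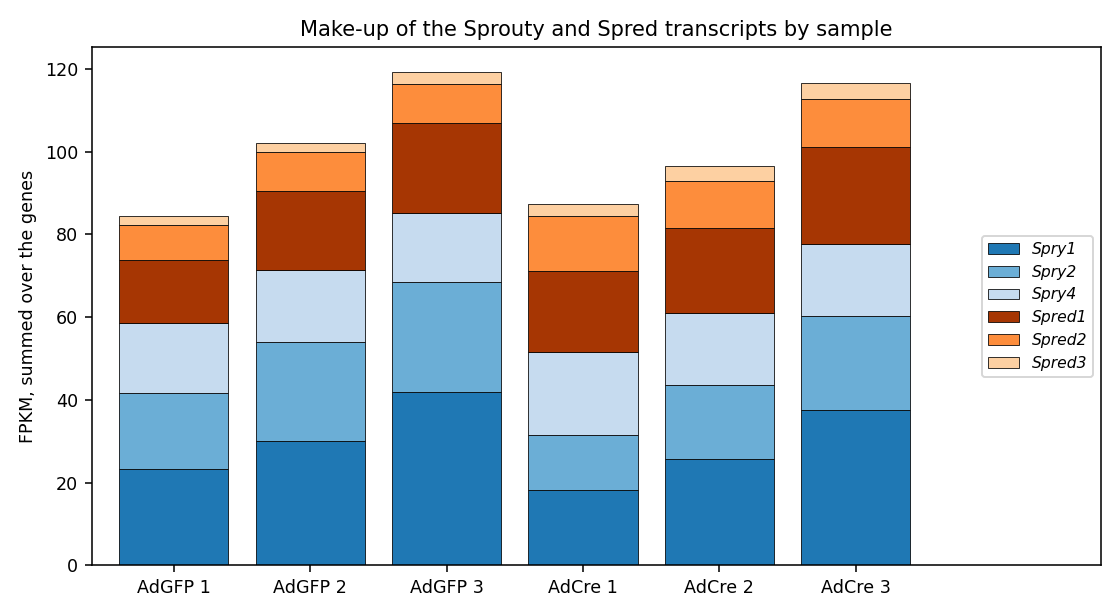
FPKM of the 6 genes (y axis) stacked by sample, with the Sprouty genes in blue and the Spred genes in orange. Total height is alike in the groups (84.5 to 119 and 87.6 to 117 FPKM), and the orange share is 28.5 to 30.6% in AdGFP and 33.4 to 40.9% in AdCre.

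Likeness between profiles was measured as the root mean square difference of log2 values over the 6 samples, each gene centred on its own mean. Between members it was smallest for Spry1 and Spry2 (0.148), next for Spry4 and Spred2 (0.158), and largest for Spry1 and Spred2 (0.525). Over all protein-coding genes tested, the genes nearest to Spry1 were Heph, a copper-dependent ferroxidase (0.067), Tmem98 (0.084) and Arap2 (0.084), and those nearest to Spry2 were Rsrp1 (0.032), Dnajc1 (0.058) and Klhl36 (0.060). Nearest to Spry4 were Reep5 (0.010), Rfwd3 (0.021) and Ube2f (0.024). Spred1 lay nearest to Scoc (0.024) and Tulp3 (0.034). Spred2 lay nearest to Epb41l1 (0.036), Plxna1 (0.056) and Cdc42bpb (0.060), and Spred3 to Irak3 (0.039), Fam20a (0.077) and Aldh1a2, an enzyme of retinoic acid synthesis (0.079). The median distance of a protein-coding gene from a member was between 0.234 for Spry4 and 0.465 for Spry1. Distances depend on how much a gene varies. The root mean square around the gene's own mean was 0.09 for Spry4, 0.22 for Spred2 and 0.41 for Spry1. Spry4 thus lay nearer to a flat profile than to Spred2. Libraries are shared by all of these genes, and the values are given as a description.

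Genes that work with the Sprouty and Spred proteins were examined next. The lists were chosen with earlier results of these data known, and some genes, such as Dusp4, are in several lists. Their counts are therefore descriptions and not independent evidence. Genes of each list were counted as higher or lower by the mean of log2(FPKM + 0.1), the scale of the fit, called the log2 mean here, which for genes with small differences can differ in sign from the mean FPKM. Over all genes tested, 49.6% had higher log2 means in AdCre, 6.15% passed with the block, and 10.2% had an unadjusted p under 0.05 without it. Nf1 was at 3.92, 4.04 and 4.47 FPKM in AdGFP and at 4.3, 5.08 and 4.16 FPKM in AdCre (log2 fold change 0.12, limma adjusted p = 0.847, and 0.587 with the block), and the groups overlapped. Its log2 fold change was 0.03 without AdCre replicate 2 and 0.01 with the block and without pair 2. Of 21 genes for proteins that bind, modify or are targeted by Sprouty and Spred, 9 had higher and 12 lower log2 means in AdCre, with a median log2 fold change of -0.01, and 0 passed in limma with or without the block (2 at an unadjusted p under 0.05 without it, Cblb and Cav1, near the 10.2% of all genes). The median was 0.08 after rescaling to TPM, which moved the median of all genes to 0.087. Smallest in p without the block was Cav1, the membrane scaffold caveolin-1, at 51.3, 51.7 and 60.0 FPKM in AdGFP and 65.7, 75.0 and 65.3 FPKM in AdCre (log2 fold change 0.34, limma adjusted p = 0.429, and 0.104 with the block). It passed with voom and the block (0.40, adjusted p = 0.0197), as 12.6% of all genes did, and with the block Dyrk1a, a kinase that binds Sprouty proteins, had a smaller p (adjusted p = 0.0943 in limma).

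Among RAS GTPase-activating proteins, 7 of the 9 tested had higher log2 means in AdCre (49.6% of all genes did), the median log2 fold change was 0.16, and 1 passed, with the block, against 6.15% of all genes. Leaving out AdCre replicate 2 gave a median of 0.08 and leaving out AdGFP replicate 1 gave 0.09. The gene that passed was Rasa3, which inactivates RAS and RAP1. Its level was 11.6, 14.3 and 14.5 FPKM in AdGFP and 18.9, 18.8 and 24.0 FPKM in AdCre, without overlap (log2 fold change 0.61, limma adjusted p = 0.291, and 0.0293 with the block). Of 17 receptor tyrosine kinases tested, 9 had higher log2 means and 1 passed with the block, shares near those of all genes (49.6% and 6.15%). Met, the receptor of hepatocyte growth factor, is among the 9 at a log2 fold change of 0.04, with a mean FPKM of 4.84 in AdCre and 4.99 in AdGFP. In this list the median was 0.04 (between -0.07 and 0.19 with 1 sample left out), and Flt1, a receptor of vascular endothelial growth factor, was the gene that passed. Flt1 was at 10.8, 9.99 and 9.58 FPKM in AdGFP and at 16.3, 16.8 and 13.3 FPKM in AdCre (log2 fold change 0.60, limma adjusted p = 0.244, and 0.0271 with the block), and it is also a marker of endothelial cells.

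Other feedback inhibitors of RAS-ERK signaling had larger log2 differences at their upper end. Of 9 tested, 7 had higher log2 means in AdCre (49.6% of all genes did), with a median log2 fold change of 0.21 (0.11 with AdCre replicate 3 left out and 0.33 with AdCre replicate 2 left out), and 3 passed with the block, all higher, against 6.15% of all genes. Without the block 5 had an unadjusted p under 0.05, against 10.2% of all genes: Errfi1, Dusp4, Dusp5, Lrig1 (log2 fold change 0.34) and Socs2 (-0.38). Errfi1, an inhibitor of the EGF receptor, was at 27.3, 23.1 and 19.7 FPKM in AdGFP and at 59.7, 44.1 and 34.9 FPKM in AdCre (log2 fold change 0.96, limma adjusted p = 0.261, and 0.0119 with the block). Dusp4, a phosphatase of MAP kinases, was at 76.5, 44.0 and 32.2 FPKM against 101, 79.1 and 70.4 FPKM, where the groups overlapped but each pair was higher (0.79, limma adjusted p = 0.47, and 0.037 with the block). Dusp5, a nuclear phosphatase of ERK, was at 9.54, 6.44 and 9.78 FPKM against 23.1, 10.5 and 14 FPKM (0.83, limma adjusted p = 0.429, and 0.0418 with the block). Dusp4 was at 0.51 without AdGFP replicate 3 and Dusp5 at 0.52 without AdCre replicate 1.

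Spry2 and Spry4 also belong to a 10-gene score used as a readout of MAPK activity. Of the other 8 genes of that score, 6 had higher log2 means in AdCre (49.6% of all genes did) and the median log2 fold change was 0.35, beside -0.37 for Spry2 and 0.11 for Spry4. Passing with the block, as 6.15% of all genes did, were Ccnd1 (1.15, limma adjusted p = 0.00969), which encodes cyclin D1, Etv4 (1.32, 0.0145), an ETS transcription factor, and Dusp4. None of the 8 passed without the block (4 at an unadjusted p under 0.05, against 10.2% of all genes). Ccnd1, Etv4 and the feedback inhibitor Errfi1 were singled out by the study on these samples, so their direction is not independent evidence. Each of the 7 genes named from these lists as passing with the block passed under 9 or 10 of the 13 alternatives with a block and under 0 of the 17 without. No test of a difference between Spry2 and these genes was made.

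**Figure D4:**
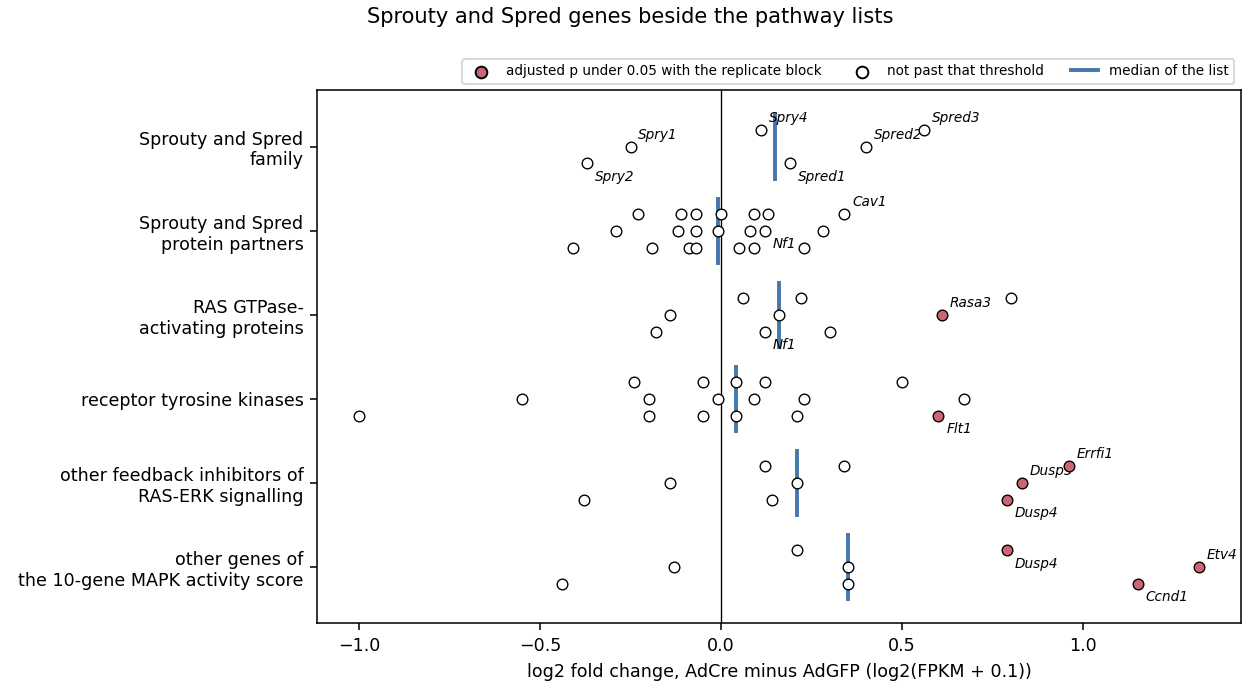
Log2 fold change, AdCre minus AdGFP (x axis, log2(FPKM + 0.1)), for each tested gene of 6 lists, 1 row a list. Red points passed with the replicate block, open points did not, and blue bars are list medians. The family row has 0 red points and a median of 0.15, and the medians of the lower rows are -0.01, 0.16, 0.04, 0.21 and 0.35.

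The cultures held several cell types, and in bulk RNA fewer cells of a type and less RNA per cell cannot be told apart. For the marker counts, the shares over all genes are 49.6% with higher log2 means in AdCre and 6.15% passing with the block. All 10 cardiomyocyte genes (such as Tnnt2, Actn2 and Pln) had lower log2 means in AdCre and 6 passed with the block, all lower. Their summed level was 11143, 8634 and 6495 FPKM in AdGFP and 5350, 5728 and 3721 FPKM in AdCre. Fibroblast markers had lower log2 means for 7 of 8 genes (3 passed with the block) and summed to 2589, 3512 and 4644 FPKM against 2272, 3043 and 3324 FPKM. Endothelial markers had higher log2 means for 8 of 8 genes (4 passed with the block, against 6.15% of all genes) and summed to 91.3, 111 and 141 FPKM against 134, 151 and 199 FPKM. Macrophage markers had higher log2 means for 6 of 6 tested genes (1, Lyz2, passed with the block, at an adjusted p of 0.0497 in limma, and Cd14 had a mean of 2.42 FPKM in both groups) and summed to 45, 193 and 248 FPKM against 80.7, 260 and 307 FPKM. In both groups Spry1, Spry2 and Spred1 were lowest in sample 1 and highest in sample 3, and so were the fibroblast, endothelial and macrophage sums. The sums for smooth muscle and pericytes (139 to 160 against 132 to 175 FPKM, 0 of 7 genes passing with the block) and for the epicardium (158 to 290 against 212 to 288 FPKM) overlapped between groups. With the block 2 of 7 epicardial genes passed in limma, Krt8 as higher (log2 fold change 1.48, adjusted p = 0.0269) and Tbx18 as lower (-0.45, 0.0441), both named after their values were seen. Red blood cell markers summed to at most 2.27 FPKM, with 2 of 6 at 0 in every sample. Which cells the Sprouty and Spred transcripts came from is not recorded in bulk data, and the part of these markers in the differences above was not tested.

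**Figure D5:**
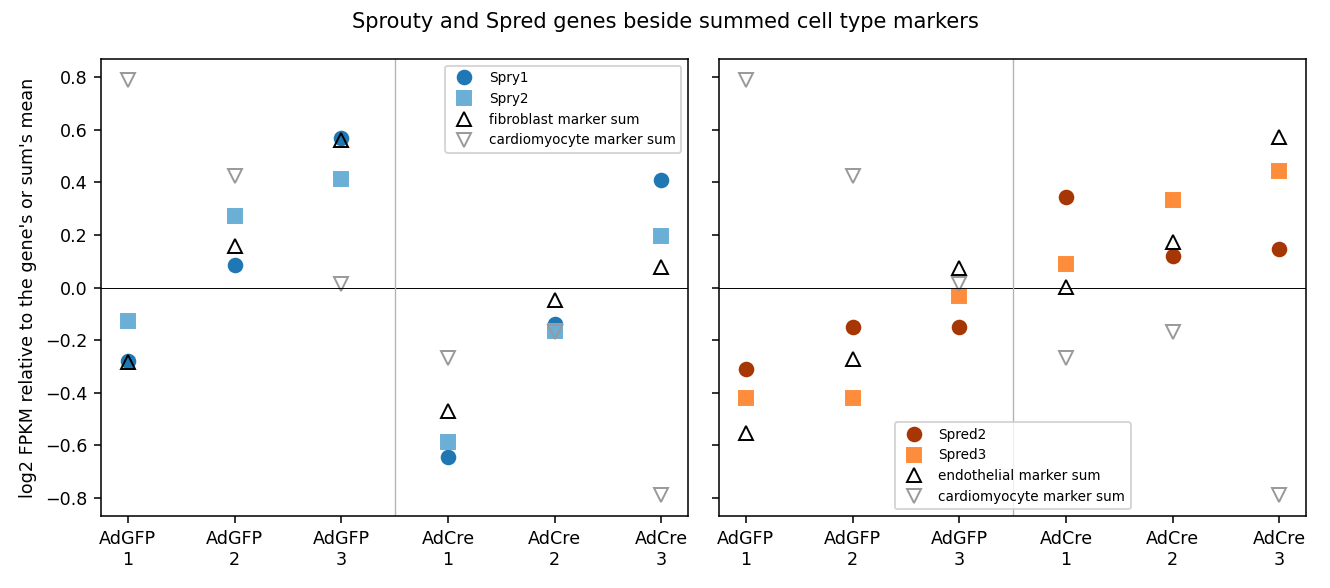
Log2 level relative to the mean over the 6 samples (y axis) for Spry1 and Spry2 beside the fibroblast and cardiomyocyte marker sums (left), and for Spred2 and Spred3 beside the endothelial and cardiomyocyte marker sums (right). Filled points are genes, open triangles are marker sums, and the vertical line divides AdGFP from AdCre. In both groups Spry1, Spry2 and the fibroblast and endothelial sums are lowest in sample 1 and highest in sample 3, while Spred2 and Spred3 are above their means in all 3 AdCre samples and below them in all 3 AdGFP samples.

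Rit1 itself was at 7.66, 8.99 and 9.01 FPKM in AdGFP and at 8.9, 9.1 and 9.58 FPKM in AdCre (log2 fold change 0.11, limma adjusted p = 0.84, and 0.03 for the log2 fold change without AdGFP replicate 1). A gene-level value does not separate the M90I from the wild-type transcript, so it does not check the genotype labels. Recovered reads came to between 25.28 and 26.55 M per AdGFP sample and between 25.98 and 32.43 M per AdCre sample (M, megareads), and AdCre 1 was the deepest. For Spry1, 24.4% of the exon bases lie under exons of the antisense gene Gm42922, which was listed at no more than 0.195 FPKM, and for Spred3 3.25% lie under Ggn. Whether counting used strand is not given in the sources used here, so reads of these genes and their antisense partners cannot be told apart. Of the 50-base words in Spred2 transcripts, 1.34% also occur in Gm14612, and the other 5 members shared none with another gene.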

How the data were processed

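The authors deposited 1 table of FPKM values for 6 samples, without pooled or unused columns. Per the submitters' processing notes, the tools were fastp, STAR 2.5 and HTSeq 0.6.1 with mm10; annotation and strand use are not given in the sources used here. Poly-A RNA had been copied from random primers. Symbols, exon lengths and coordinates came from GENCODE M21, which held 54495 of 54532 IDs. FPKM times exon length gave whole reads (within 0.02 of a read) for at least 96.5% of values, so reads were recovered. At these depths 1 FPKM over 2 kb stood for 49.3 to 64.1 reads. Libraries in a group differed beyond counting error (chi-square per degree of freedom 39.2 to 126).

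Values were fitted as log2(FPKM + 0.1), a scale on which changes of low genes are understated, over genes averaging 0.5 FPKM or more, in limma 3.58.1 (R 4.3.3, lmFit, eBayes with an intensity trend, two-sided, Benjamini-Hochberg). The limma fit, with and without the block, was tried on simulated reads. The exact permutation test of 3 against 3 is two-sided. What the replicate numbers of the labels stand for is not stated. Between same-numbered samples, deviations from the group mean correlated at 0.568, 0.268 and 0.506 and between other samples at -0.497 to 0.036. Deviations cancel within a group, so the correlations between other samples are tied to the first and are no separate check. Pairing by number was adopted from these correlations alone, and blocked values are given where a call or an interval turns on them.

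The members and lists were chosen with earlier results of these data known. Named genes were the 6 members, Rit1, Nf1, at most 4 genes per pathway list that passed (without the block or, if none, with it), otherwise the list gene with the smallest p, and the 3 protein-coding genes nearest to each member. Of the nearest genes, 1 is not reported here. Cblb, Dyrk1a, Lrig1, Socs2, Met, Erbb4, Lyz2, Cd14, Krt8 and Tbx18 were named after their values were seen. Promoter windows were from RefSeq (5 of 6 members). Alternatives numbered 30: pseudocounts, filters, scalings, no trend, voom, the block, and each sample or pair left out. Further alternatives of the blocked fit and scaling to summed reads were added after seeing the data. Python 3.11.15, numpy 2.4.6, pandas 2.3.3, scipy 1.17.1 and matplotlib 3.10.9 were used.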

Additional observations from a re-analysis of the deposited data

How the results depend on the processing

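The count of genes passing was 1 without the replicate block. It was 3 with a pseudocount of 1, 4 without an intensity trend, 0 without a filter on low values, 0 with voom (1448 at an unadjusted p under 0.05), and 0 to 2 when 1 sample was left out. With the replicate block it was 848 (364 higher and 484 lower in AdCre), and the split turned to 538 higher and 337 lower (875 in all) after rescaling to TPM, to 479 and 395 (874 in all) with libraries scaled to summed reads, and to 1002 and 739 (1741 in all) with voom. The median log2 fold change of all genes, -0.002 with the block, was 0.087, 0.058 and 0.058 under these settings. The blocked count was 778 with median centring, 762 with quantile normalization, 784 with a pseudocount of 1, 1167 over protein-coding genes, 17 without a filter and 0 without a trend (3122 at an unadjusted p under 0.05). Leaving out both samples of a pair gave 772 without pair 1, 149 without pair 2 and 1 without pair 3.

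Of the members, Spry1 changed direction without AdCre replicate 1 (0.01, and between -0.51 and 0.01 over the samples left out). It was lower in AdCre under all 13 alternatives with the block (-0.29 to -0.16). The other 5 members kept their direction under all 30 alternatives. Past the threshold were Spry2 over protein-coding genes with the block (-0.37), Spred2 with voom and the block (0.47), and Spred3 with the block after rescaling to TPM (0.66), with voom (0.64), over protein-coding genes (0.56) and with summed reads (0.62). The block changed no other call of a member. The median of the 21 partner genes, -0.01, was 0.08 after rescaling to TPM, 0.06 with voom and 0.05 with summed reads. Each held with or without the block. The same settings moved the median of all genes to 0.087, 0.059 (0.058 with the block) and 0.058. When 1 sample was left out the partner median was -0.07 to 0.03. With 1 sample left out, the median of the other feedback inhibitors, 0.21, ran from 0.11 (without AdCre replicate 3) to 0.33 (without AdCre replicate 2), and that of the MAPK score genes, 0.35, from 0.28 to 0.47. The causes were not tested.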
